A study of Homo sapiens with 26 samples.

Results

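Ribosome biogenesis factors are the nucleolar proteins that make ribosomal RNA and build it into ribosomal subunits. A list of 57 such genes was followed in the human basal, triple-negative breast cancer line MDA-MB-468 while Notch signalling was blocked or stimulated. The members were picked by function, with earlier results of these data known. Of the 57, 50 were measured, among 19775 genes in all. NOP56, DKC1, BOP1 and PPAN are covered here only by probe sets that name several genes, and DDX18, GNL3 and EBNA1BP2 by none, so these 7 are not analysed here. The 50 comprise 4 RNA polymerase I subunits, 6 proteins of nucleolar organisation and rDNA control, 3 snoRNP proteins, 20 small-subunit and 17 large-subunit assembly factors.

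Expression was measured on 26 Affymetrix expression arrays in 2 experiments. In the antagonism experiment treatment began 40 h into culture and lasted 24 h. All 3 groups received 10 µg/ml of antibody: 3 control arrays had anti-gD control IgG with 0.05% DMSO, 3 had control IgG with 5 µM DAPT, and 2 had the anti-NOTCH3 antibody A4 with 0.05% DMSO. DAPT is a gamma-secretase inhibitor, which stops the cleavage that releases the active part of any Notch receptor. The agonism experiment, begun with more cells per dish, had 6 groups of 3 arrays. The DMSO group received 0.05% DMSO and no DAPT, and the other 5 groups were first held in 5 µM DAPT, for 16 h in each case. All 6 groups were then kept in plain medium for 2 h. The DMSO group was returned to DMSO, and the others received DAPT again, 20 µg/ml control IgG, 20 µg/ml of the anti-NOTCH3 antibody A13 (listed by the submitters among the agonists), Fc-coated beads, or beads carrying the Notch ligand JAG1 as an Fc fusion. The DMSO and DAPT groups were given theirs again at 22 h, and all these arrays are labelled as 24 h after the washout. The protocol mentions only 1 DMSO plate and the labels name no separate cultures, so the p-values measure the spread between these arrays, which may be technical.

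Ribosome assembly begins in the nucleolus, where RNA polymerase I transcribes a long precursor RNA. Small nucleolar ribonucleoproteins (snoRNPs) guide the chemical modification and some of the cutting of this precursor, and 2 sets of assembly factors then fold and trim it into the small and the large subunit. The transcription factor MYC is known to drive many of these genes, often through the E-box sequence CACGTG in their promoters, and MYC is itself a known target of Notch in some cancers. Growing tumour cells generally keep the pathway highly active.

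Promoter sequence was available for 44 of the 50 measured members, in RefSeq's GRCh38.p14 table, as 250 bases before to 50 bases after the gene start. The letters CACGTG, which read the same on both strands, occurred in 16 of these 44 promoters (36.4%). They occurred in 8.9% of the 15384 promoters of genes tested on the arrays and in 7.43% of all 27305 promoters of that length in the table. Among a list of further assembly factors that are not members the share was 19 of 54 (35.2%), and among cytosolic ribosomal protein genes it was 3 of 62 (4.84%). Of the members, 8 of 19 small-subunit factors, 5 of 15 large-subunit factors, 2 of 2 snoRNP proteins, 1 of 5 nucleolar proteins and 0 of 3 RNA polymerase I subunits held it. The stretches below run from base -60 to base 28 counted from the start, 5′ to 3′ on the gene's own strand, with CACGTG in capitals. LYAR is shown because it changed most with the NOTCH3 antibody A13 and its promoter lacks these letters. The other 8 are examples in which they lie close to the start, and not the full set. UTP18 (base 5), PES1 (base 14), NOP14 (base 16) and IMP4 (base 16) also hold them close to it and are not shown.
LYAR: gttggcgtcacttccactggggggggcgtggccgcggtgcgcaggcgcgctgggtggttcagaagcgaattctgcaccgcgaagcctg
NOC3L: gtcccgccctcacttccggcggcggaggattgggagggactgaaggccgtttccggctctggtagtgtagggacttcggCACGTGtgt
WDR43: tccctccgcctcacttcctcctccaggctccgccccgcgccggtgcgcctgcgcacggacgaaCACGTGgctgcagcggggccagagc
MRTO4: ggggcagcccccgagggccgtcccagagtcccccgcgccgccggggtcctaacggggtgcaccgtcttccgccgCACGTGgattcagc
GNL2: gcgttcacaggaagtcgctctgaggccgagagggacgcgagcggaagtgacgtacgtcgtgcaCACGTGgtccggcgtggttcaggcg
RRP9: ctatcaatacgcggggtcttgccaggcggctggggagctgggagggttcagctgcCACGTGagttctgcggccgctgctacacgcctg
NAT10: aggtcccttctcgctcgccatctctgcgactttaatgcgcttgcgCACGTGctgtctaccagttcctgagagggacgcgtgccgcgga
UTP20: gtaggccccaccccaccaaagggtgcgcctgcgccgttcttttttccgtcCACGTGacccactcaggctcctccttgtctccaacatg
FBL: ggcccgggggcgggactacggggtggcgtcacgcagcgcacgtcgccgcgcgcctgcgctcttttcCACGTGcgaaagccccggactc
The positions in GRCh38.p14 are chr4:4290127-4290214 (reverse strand) for LYAR, chr10:94362912-94362999 (reverse strand) for NOC3L, chr2:28894607-28894694 (forward strand) for WDR43, chr1:19251745-19251832 (forward strand) for MRTO4, chr1:37595910-37595997 (reverse strand) for GNL2, chr3:51941877-51941964 (reverse strand) for RRP9, chr11:34105569-34105656 (forward strand) for NAT10, chr12:101280045-101280132 (forward strand) for UTP20 and chr19:39846352-39846439 (reverse strand) for FBL. A match of these letters is a description of the sequence and not a measurement of binding. Of the members with a promoter, 13 of the 32 that rose with A13 held the letters, as did 3 of the 11 that did not pass and 0 of the 1 that fell.

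Values below are log2 intensities, so a difference of 1 is a doubling. Changes are differences of group means with their standard error (SE), and a gene is said to rise or fall where limma's p-value, adjusted over all 19775 genes, was under 0.05. Array medians were 7.60 to 7.65 in the antagonism experiment and 6.84 to 6.88 in the agonism experiment, and levels were compared only within an experiment. Antagonism control 2 stood apart from its mates, with an SD of the difference of 0.32 against control 3, where pairs of the agonism experiment had 0.138 to 0.194. Of the 3 measured basal markers, EGFR and KRT5 were above the upper quartile on all arrays, and KRT14 on 0 of 8 antagonism and 6 of 18 agonism arrays. Of the markers of other cells, PGR (hormone-responsive), LUM (fibroblast) and PTPRC (leukocyte) were under the lower quartile on all arrays, and CDH5 (endothelial) on 8 of 8 and 15 of 18. ESR1, COL1A2, COL3A1, DCN, CD3E, PECAM1 and VWF lay between the quartiles on all arrays. ERBB2 was above the upper quartile on 4 of 18 agonism arrays, the collagen COL1A1 on 1 of 8 antagonism arrays, and CD14, a monocyte marker, on 8 of 8 and 13 of 18. HES1, a direct Notch target, fell with both antagonists and rose with both agonists, and NRARP, another, rose with both agonists. In the antagonism experiment NRARP read 8.86, 9.14 and 8.88 on the controls, 8.71, 8.76 and 8.69 with DAPT and 8.60 and 8.71 with A4. HEY1, a further target, read 7.83, 7.83 and 7.93 with IgG and 8.39, 8.33 and 8.38 with A13. It overlapped between Fc beads (7.80, 7.74 and 7.92) and JAG1-Fc beads (7.86, 7.96 and 7.92).

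The comparison of A13 with its control IgG asked what stimulation of NOTCH3 does after Notch signalling had been held down. With A13, 37 of the 50 factors rose and 1 fell, with a median change of 0.33. Across all genes tested 5.68% rose and 9.02% fell, with a median of -0.03. The RNA was taken from whole cultures, so more RNA per cell and more cells with the RNA cannot be told apart. Every role took part: 2 of 4 polymerase subunits, 5 of 6 nucleolar proteins, 2 of 3 snoRNP proteins, 16 of 20 small-subunit and 12 of 17 large-subunit factors rose. The 3 A13 arrays lay above the 3 IgG arrays for 44 members, where 12.8% of all genes were arranged so.

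**Figure D1:**
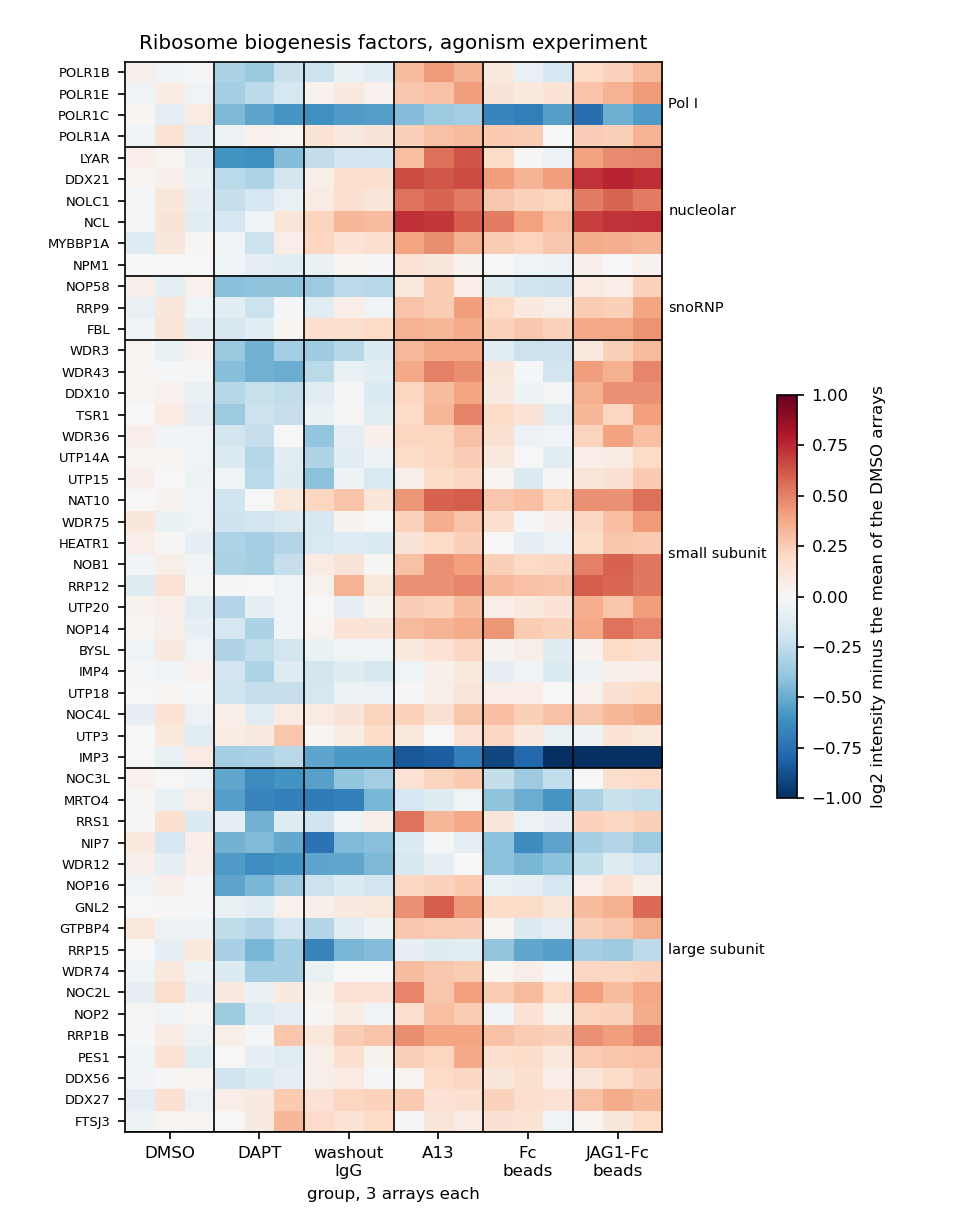
Each row is 1 of the 50 measured members, grouped by role, and each column is 1 of the 18 arrays of the agonism experiment, 3 per group. Colour gives the log2 intensity minus the mean of the 3 DMSO arrays, values past 1 or -1 take the end colour, and the reader should see most rows turn from blue with DAPT to red with A13 and JAG1-Fc beads, with IMP3, POLR1C, MRTO4, WDR12, RRP15 and NIP7 below their DMSO mean in all 5 other groups.

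LYAR, a nucleolar protein that promotes rDNA transcription, changed most. It read 9.25, 9.31 and 9.32 on the IgG arrays and 9.80, 10.05 and 10.13 on the A13 arrays, a change of 0.70 ± 0.08 (SE, adjusted p = 8.93e-06), or 1.62-fold. NOC3L, which accompanies early large-subunit precursors, read 9.70, 9.85 and 9.90 with IgG and 10.39, 10.47 and 10.51 with A13, a change of 0.64 ± 0.07 (adjusted p = 2.33e-06). For both genes the lowest A13 array stood well clear of the highest IgG array.

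Among the polymerase subunits, POLR1B, the second largest, rose by 0.49 ± 0.07 and POLR1E, an initiation subunit, by 0.27 ± 0.06. POLR1C, shared with RNA polymerase III, changed by 0.20 ± 0.07 and the largest subunit POLR1A by 0.16 ± 0.07, and neither passed. Of the nucleolar proteins, the RNA helicase DDX21 rose by 0.51 ± 0.05, the snoRNP chaperone NOLC1 by 0.43 ± 0.06, nucleolin (NCL), which binds nascent pre-rRNA, by 0.39 ± 0.08 and MYBBP1A by 0.23 ± 0.07. Nucleophosmin (NPM1), the abundant nucleolar scaffold, changed by 0.12 ± 0.05 and did not pass (adjusted p = 0.151). NPM1 was bright on every agonism array, between 14.00 and 14.26. Of the snoRNP proteins, NOP58 rose by 0.44 ± 0.06 and the U3-specific RRP9 by 0.35 ± 0.08, while the methyltransferase fibrillarin (FBL) changed by 0.17 ± 0.06 and did not pass (adjusted p = 0.059).

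The small-subunit processome, the large particle that forms on the precursor's leading end, supplied several of the strongest rises. WDR3 rose by 0.62 ± 0.07 and WDR43 by 0.60 ± 0.07, both of them processome components. HEATR1, which also belongs to the processome, rose by 0.33 ± 0.05, UTP20 by 0.27 ± 0.07 and BYSL by 0.20 ± 0.06. Of the 20 small-subunit factors, UTP18, NOC4L and UTP3 did not pass, with changes of 0.15, 0.07 and -0.01. On the large-subunit side MRTO4, which holds the place of a stalk protein during assembly, rose by 0.51 ± 0.07, RRS1 by 0.48 ± 0.10 and WDR12, which works in a complex with PES1 and BOP1, by 0.42 ± 0.06. PES1 itself changed by 0.19 ± 0.07 and did not pass (adjusted p = 0.0601). The helicases DDX56 and DDX27 and the rRNA methyltransferase FTSJ3 changed by 0.10, -0.01 and -0.11 and did not pass.

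IMP3, a partner of U3 snoRNA in the processome, was the only member that fell with A13. It read 10.86, 10.81 and 10.81 with IgG and 10.54, 10.56 and 10.70 with A13, a change of -0.23 ± 0.07 (adjusted p = 0.0405). Its close partner IMP4 rose by 0.19 ± 0.06 (adjusted p = 0.0418). Both calls lie near the threshold, and neither held in every alternative.

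The count for A13 was 25 rises among the 42 members that have another kind of probe set, once probe sets ending in _x_at or _s_at, which may detect related transcripts, were left out. POLR1B, NCL and WDR3 then rest on much dimmer probe sets, with changes of 0.22, 0.03 and 0.19 that did not pass. Of the 37 rises, 23 passed in every alternative, among them LYAR, NOC3L, WDR43, DDX21, NOLC1, MRTO4, WDR12 and NOP58. Among 23 called members with several probe sets, 2 had sets that disagree in sign (NOP16 and RRP12).

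Beads coated with JAG1-Fc, which carries a natural Notch ligand, were compared with Fc-coated beads. This asked about stimulation by a ligand and not by an antibody to NOTCH3, and it shares no arrays with the A13 comparison. With JAG1-Fc, 20 of the 50 factors rose and 1 fell, with a median change of 0.22. Of all genes 2.97% rose and 5.14% fell, with a median of 0.01. All 20 rises were among the 37 with A13, which is 54.1% of the A13 rises, and 48 of 50 members changed in the same direction in both comparisons. The matching counts over all genes are not given here, so this overlap is not shown to be particular to the members. The count of 21 was 13 with only the compared groups in the fit, 11 without Fc array 2 and 12 without JAG1-Fc array 3. Of the 20 rises 9 passed in every alternative, and the 1 fall did not. Of 13 called members with several probe sets, 4 had sets that disagree in sign (GTPBP4, NOP16, POLR1B and RRP12).

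WDR43 changed most with JAG1-Fc. It read 9.80, 9.66 and 9.50 on Fc beads and 10.10, 10.04 and 10.17 on JAG1-Fc beads, a change of 0.45 ± 0.07 (adjusted p = 0.000577). DDX10, an RNA helicase of small-subunit assembly, read 10.44, 10.30 and 10.33 on Fc beads and 10.71, 10.81 and 10.81 on JAG1-Fc beads, a change of 0.42 ± 0.06 (adjusted p = 0.000256). The groups did not overlap for either gene. LYAR followed at 0.41 ± 0.08, then NOC3L at 0.40 ± 0.07, WDR3 at 0.40 ± 0.07 and the GTPase GTPBP4 at 0.35 ± 0.07. In the panel spread over the roles, POLR1B, NCL, NOLC1, HEATR1, UTP20, WDR12 and NOC3L rose. NPM1 (0.07), FBL (0.17), RRP9 (0.18), BYSL (0.14), MRTO4 (0.23) and PES1 (0.13) did not pass. IMP3 fell here too, by 0.25 on the log2 scale (SE 0.07, adjusted p = 0.039).

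**Figure D2:**
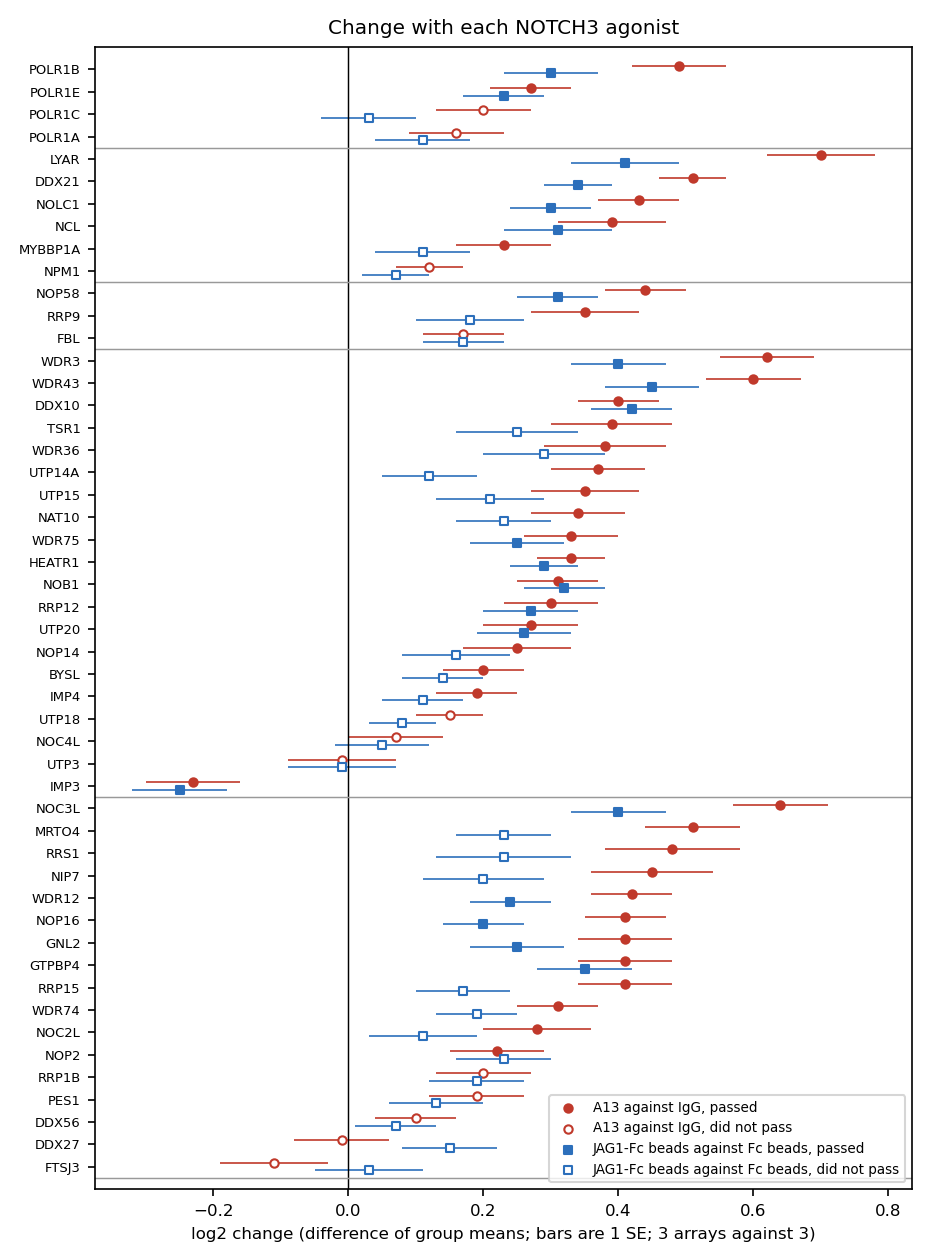
Points give the log2 change of each member with A13 against IgG (red) and with JAG1-Fc beads against Fc beads (blue), bars are 1 SE from 3 arrays against 3, and filled symbols passed at an adjusted p under 0.05. Most red points lie to the right of the blue ones, LYAR is farthest right at 0.70, and IMP3 is the filled pair below 0.

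The A13 change was larger than the JAG1-Fc change for 45 of 50 members, with a median difference of 0.09. No member passed the limma test of that difference, and of all genes 0.0657% were higher and 0.116% lower. An unadjusted p under 0.05 was found for 8 members and for 5.93% of all genes. The largest differences were 0.29 for LYAR (95% interval 0.04 to 0.53, adjusted p = 0.749) and 0.28 for MRTO4 (0.06 to 0.49, adjusted p = 0.70). The 17 members that rose with A13 alone are therefore not shown to respond differently to JAG1-Fc. Fc beads against IgG, the 2 controls, gave 2 calls: DDX21 rose by 0.27 ± 0.05 and IMP3 fell by 0.35 (SE 0.07), against 1.64% and 0.44% of all genes higher and lower. The change was positive for 44 of 50 members, with a median of 0.08, and MYC rose by 0.44 ± 0.07 (adjusted p = 0.0026). Neither call held without IgG array 1, Fc array 1 or Fc array 3.

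MYC RNA moved with the factors in these comparisons. It read 10.74, 11.01 and 10.89 with IgG and 12.23, 12.23 and 12.17 with A13, a rise of 1.33 ± 0.07 (adjusted p = 5.78e-10). It read 11.36, 11.26 and 11.33 on Fc beads and 12.15, 12.07 and 12.14 on JAG1-Fc beads, a rise of 0.80 ± 0.07 (adjusted p = 9.92e-07). For MYC the A13 change exceeded the JAG1-Fc change by 0.53 ± 0.10 (adjusted p = 0.0419). The part of MYC in the change of the factors was not tested.

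Other genes of the pathway were counted from lists chosen by function, also with earlier results of these data known. Of 65 further assembly factors, 28 rose and 0 fell with A13, led by the kinase RIOK1, a late small-subunit factor, at 0.70 ± 0.06, and 9 rose and 0 fell with JAG1-Fc. Of 21 further genes of RNA polymerase I and III transcription, 6 rose and 0 fell with A13, among them POLR3G at 0.60 ± 0.13 and TAF1A at 0.48 ± 0.08, and 3 rose with JAG1-Fc. The cytosolic ribosomal proteins, the building blocks that the factors assemble, gave no calls. With A13 0 of 52 passed in limma, with a median of 0.03, and 1 had an unadjusted p under 0.05, where 25.8% of all genes did. With JAG1-Fc 0 of 52 passed as well, with a median of 0.01, and 0 had an unadjusted p under 0.05, where 21% of all genes did. Their median deviation from the experiment's mean lay between -0.03 and 0.07 on every agonism array.

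DAPT, given again after the 2 h washout, was compared with DMSO to ask what the loss of baseline Notch signalling does. With DAPT, 24 of the 50 factors fell and 0 rose in limma, with a median of -0.20, and all 31 members with an unadjusted p under 0.05 were lower. Of all genes 8.31% fell and 12.4% rose, with a median of 0.02, and 31.3% had an unadjusted p under 0.05 in either direction. MRTO4 read 9.97, 9.89 and 10.02 with DMSO and 9.41, 9.30 and 9.28 with DAPT, a change of -0.63 ± 0.07 (adjusted p = 1.58e-05). WDR12 read 11.47, 11.32 and 11.47 with DMSO and 10.85, 10.80 and 10.82 with DAPT, a change of -0.60 ± 0.06 (adjusted p = 3.06e-06). Neither gene's groups overlapped.

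The falls reached 3 of 4 polymerase subunits, 2 of 6 nucleolar proteins, 1 of 3 snoRNP proteins, 10 of 20 small-subunit and 8 of 17 large-subunit factors. NOC3L fell by 0.58 (SE 0.07), LYAR by 0.54 (SE 0.08), POLR1C by 0.53 (SE 0.07) and NIP7, a large-subunit factor, by 0.48 (SE 0.09). POLR1B fell by 0.30 (SE 0.07), HEATR1 by 0.31 (SE 0.05) and BYSL by 0.24 (SE 0.06). Of the 24 falls 15 held in every alternative, and those of POLR1B and BYSL did not. Of 17 called members with several probe sets, 3 had sets that disagree in sign (POLR1B, RRP15 and WDR74). POLR1B's call rests on 1 of its probe sets, and it changed by 0.07 without the _s_at and _x_at sets. Of the panel, NCL (-0.03), NPM1 (-0.09), NOLC1 (-0.16), FBL (-0.08), RRP9 (-0.11), UTP20 (-0.13) and PES1 (-0.06) did not pass. MYC fell by 1.21 (SE 0.07) in the same comparison. Of the further assembly factors 33 of 65 fell and 0 rose, led by the methyltransferase EMG1 at -0.63 ± 0.08, and of the ribosomal proteins 7 of 52 fell, with a median of -0.07.

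**Figure D3:**
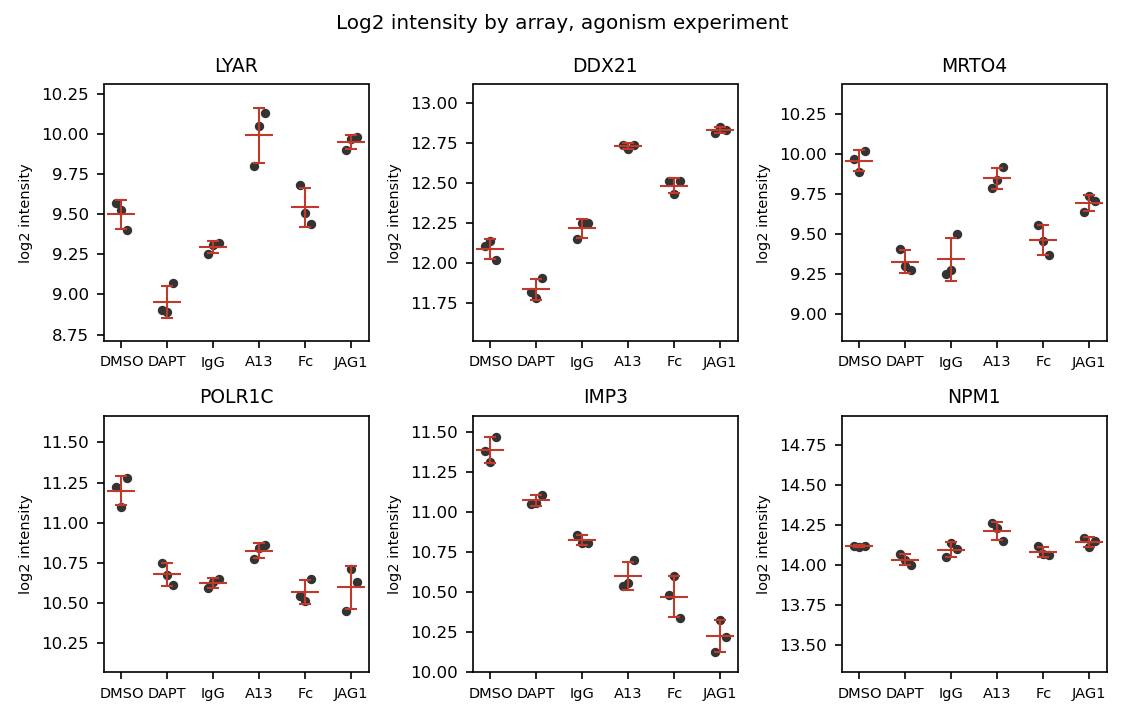
Log2 intensity (vertical axis) of 6 members on each of the 18 agonism arrays, by group (horizontal axis); points are arrays, and the red bars give the mean and 1 SD of 3 arrays. LYAR and DDX21 are lowest with DAPT and highest with A13 or JAG1-Fc beads, MRTO4 means 9.33 with DAPT and 9.34 with IgG, POLR1C stays below DMSO in all 5 groups, IMP3 falls from 11.39 (DMSO) to 10.23 (JAG1-Fc beads), and NPM1 moves little.

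Washout of DAPT followed by control IgG alone was compared with washout followed by DAPT again. Of the 50 factors 13 rose and 1 fell, with a median of 0.14, against 4.15% and 5.62% of all genes. MYC rose by 1.45 ± 0.07 (adjusted p = 7.59e-10). DDX21 read 11.82, 11.78 and 11.91 with DAPT and 12.15, 12.25 and 12.25 with IgG, a change of 0.38 ± 0.05 (adjusted p = 0.000189). NOB1, the nuclease that makes the last cut of the small-subunit RNA, read 9.64, 9.63 and 9.73 with DAPT and 10.04, 10.09 and 9.97 with IgG, a change of 0.37 ± 0.06 (adjusted p = 0.000445). Of the nucleolar proteins 5 of 6 rose (LYAR 0.34 ± 0.08, NCL 0.31 ± 0.08, NOLC1 0.28 ± 0.06, MYBBP1A 0.24 ± 0.07 and DDX21), and of the large-subunit factors 2 of 17. IMP3 fell by 0.25 (SE 0.07). The count of 14 was 6 without IgG array 2, 7 without DAPT array 1, 8 without DAPT array 2, and 7 either without the _x_at and _s_at probe sets or with only the compared groups in the fit. POLR1E, NOLC1, DDX21 and NOB1 passed in every alternative. Among 8 called members with several probe sets, 1 had sets that disagree in sign (NOP16).

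Set against DMSO, 10 factors were lower and 5 higher with IgG, where 12.6% and 17.9% of all genes were. Without DMSO array 2 the split was 10 higher and 9 lower. MYC RNA was 0.24 ± 0.07 higher (adjusted p = 0.0159), and its part in these changes was not tested. Earlier DAPT, antibody, DMSO treatment and the addition at 22 h all differed between these groups and cannot be told apart. MRTO4 with IgG read 9.25, 9.28 and 9.50, a change of -0.62 ± 0.07 against DMSO and of 0.01 ± 0.07 against DAPT. POLR1C read 11.22, 11.10 and 11.28 with DMSO and 10.59, 10.63 and 10.65 with IgG, a change of -0.58 ± 0.07 against DMSO and of -0.05 ± 0.07 against DAPT. IMP3, NIP7, RRP15, WDR12 and NOC3L were also lower than with DMSO, by 0.43 to 0.56 in size. NCL was 0.28 ± 0.08 higher than with DMSO, RRP1B 0.21 ± 0.07, NAT10 0.21 ± 0.07, DDX27 0.20 ± 0.07 and FBL 0.18 ± 0.06. The lower calls for POLR1C, NOP58, IMP3, MRTO4, WDR12, NOC3L, RRP15 and NIP7 held in every alternative, and none of the 5 higher calls did. Among 10 called members with several probe sets, 1 had sets that disagree in sign (NOP16).

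With A13, 34 factors were above DMSO and 2 below, with a median of 0.27, where 15.7% and 15.2% of all genes were. Here too earlier DAPT, antibody, DMSO treatment and the addition at 22 h differed from the DMSO group and cannot be told apart. Of the 34 higher calls 22 held in every alternative, as did both lower ones. Of 22 called members with several probe sets, 8 had sets that disagree in sign (DDX10, HEATR1, NOC2L, NOP16, PES1, POLR1B, RRP12 and TSR1). NCL (0.68 ± 0.08) and DDX21 (0.64 ± 0.05) led, although NCL changed by 0.07 on its dim second probe set. MRTO4 (-0.11), WDR12 (-0.08), RRP15 (-0.11) and NIP7 (-0.09), all below DMSO with IgG after washout, did not differ detectably from DMSO with A13. POLR1C remained 0.38 lower (-0.38 ± 0.07) and IMP3 0.79 lower (-0.79 ± 0.07, adjusted p = 2.16e-07). The group means of IMP3 were 11.39 with DMSO, 11.07 with DAPT, 10.82 with IgG, 10.60 with A13, 10.47 with Fc beads and 10.23 with JAG1-Fc beads. These comparisons share the DMSO, DAPT or IgG arrays.

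Across the 6 groups A13 had the highest mean for 22 members and JAG1-Fc beads for 20, where 12.2% and 24.1% of all genes peaked there. DAPT had the lowest mean for 37 members, against 17.9% of all genes. The median member deviation from the experiment's mean was between 0.17 and 0.23 on the A13 arrays, between 0.17 and 0.26 on the JAG1-Fc arrays and between -0.28 and -0.18 on the DAPT arrays. Over the 18 arrays the correlation of a member with the mean of the other members had a median of 0.88, from -0.62 (IMP3) to 0.99 (LYAR). It exceeded 0.7 for 40 of 50 members and for 6.83% of other genes. The lowest after IMP3 were FTSJ3 (-0.11), UTP3 (-0.04), POLR1C (0.01), RRP15 (0.38), DDX27 (0.44) and NIP7 (0.46). Over the 8 antagonism arrays the median was 0.84. The arrays share their normalisation and their groups, so these values are descriptions.

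In the antagonism experiment baseline signalling was blocked without any washout. With DAPT 0 of 50 factors passed in limma, where 0.202% of all genes rose and 0.152% fell. An unadjusted p under 0.05 was found for 22 members and for 13% of all genes. The change was negative for 45 members, with a median of -0.18 against -0.00 for all genes. WDR43 read 10.03, 9.95 and 10.17 on the control arrays and 9.44, 9.54 and 9.65 with DAPT, a change of -0.51 ± 0.08 (adjusted p = 0.0528). POLR1E read 10.78, 10.86 and 10.88 on the controls and 10.30, 10.29 and 10.55 with DAPT, a change of -0.46 ± 0.08 (adjusted p = 0.0651). NOP16, a large-subunit factor, changed by -0.38 ± 0.07 (adjusted p = 0.0616). The DAPT arrays of these 3 genes all lay below the controls, as did those of 24 members and of 9.15% of all genes. Without control 2 there were 15 falls, and from 0 to 7 under the settings that kept all arrays.

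The antibody A4, directed at NOTCH3, also gave 0 calls among the 50, where 0.0455% of all genes rose and 0.0556% fell, and an unadjusted p under 0.05 was found for 25 members and for 9.28% of all genes. The change was negative for 45 members, with a median of -0.18. LYAR read 9.60, 9.49 and 9.74 on the controls and 9.22 and 8.98 with A4, a change of -0.51 ± 0.10 (adjusted p = 0.114). NOLC1 changed by -0.39 ± 0.08 (adjusted p = 0.13) and NOP16 by -0.36 ± 0.07 (adjusted p = 0.133). Without control 2 there were 2 falls. The DAPT and A4 comparisons share their control arrays. Set directly against DAPT, A4 gave 0 calls (2 members and 8.23% of all genes at an unadjusted p under 0.05), with a median of -0.01, and 0 of all genes passed. The largest difference was 0.39 ± 0.16 for UTP20 (adjusted p = 0.60). MYC passed in this experiment, falling by 1.34 (SE 0.10) with DAPT and by 1.15 (SE 0.11) with A4.

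The response to DAPT could be set side by side in the 2 experiments, which share no arrays. They differ at least in plating density, control IgG, length of DAPT exposure, the 2 h washout, the addition at 22 h and the array medians. The sign was the same for 44 of 50 members, and the share of all genes with the same sign is not given here. A test of the difference passed for 4 of 50, with 2.85% of all genes higher and 3.27% lower in antagonism. WDR12 changed by -0.14 ± 0.07 in the antagonism and by -0.60 ± 0.06 in the agonism experiment, a difference of 0.46 ± 0.08 (adjusted p = 0.00412). POLR1C changed by -0.08 and -0.53, a difference of 0.45 ± 0.10 (adjusted p = 0.0114), and IMP3 by 0.03 and -0.31, a difference of 0.34 ± 0.09 (adjusted p = 0.0348). NOC2L went the other way, with -0.31 and 0.03, a difference of -0.34 ± 0.10 (adjusted p = 0.0446), which became 0.22 with the mean of its probe sets. The number of calls was 2 without any of 7 single arrays, 7 without DMSO array 2 and 0 with only the compared groups in the fit.

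**Figure D4:**
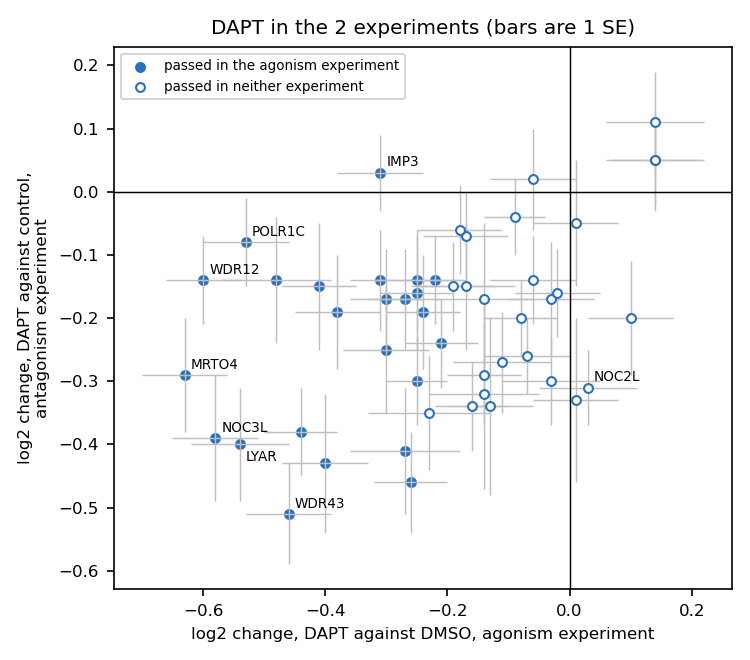
Each point is 1 of the 50 members, with its log2 change with DAPT in the agonism experiment (horizontal axis) and in the antagonism experiment (vertical axis); bars are 1 SE. Most points lie at the lower left, 24 are filled because they fell in the agonism experiment, and POLR1C, WDR12 and IMP3 lie at -0.08, -0.14 and 0.03 on the vertical axis.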

How the data were processed

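The deposited table holds 1 linear intensity per probe set and array, from 7.12 to 32597. The authors' processing is known only from the submitters' processing notes, which name RMA and R 2.10 with no roles. RMA makes the arrays' distributions alike, so a change of most transcripts 1 way would be reduced, and it gives no detection calls. The plan assumed log2 values, so log2 was taken of each intensity, with the test as planned. Per the labels' protocols, RNA was labelled by the array maker's methods.

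Of 54675 probe sets, 41091 named 1 gene and 1801 several in the platform annotation. For 41037 the gene ID was matched to RefSeq's GRCh38.p14 table. Each gene was taken from its brightest single-gene probe set over all 26 arrays, which gave 19775 genes. Of the 50 members, 31 had several such probe sets, and 17 rest on a set ending in _x_at or _s_at.

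Groups came from the treatment labels, and arrays are numbered in the order listed. The linear model used limma 3.58.1 (functions lmFit, contrasts.fit and eBayes, under R 4.3.3), with all groups of an experiment in 1 fit and Benjamini-Hochberg adjustment over all genes. The number of arrays limits the precision. On simulated data with 19775 genes, 100 genes were changed by 0.5 on the log2 scale and 100 by 1, with independent noise. The changes of 0.5 were recovered in 83% of cases for A13 against IgG, with 17 false among 198 calls. They were recovered in 58% for DAPT and in 48% for A4, both against control in the antagonism experiment. The share of changed genes and the noise may differ in the data, so recovery there may differ too. The alternatives were another scaling, other probe sets, a filter on dim genes, another variance prior, only the groups compared, and each array left out. The members and the gene lists were chosen with earlier results of these data known, so no test over a list was made. Values are named for a panel spread over the roles (POLR1B, NCL, NPM1, NOLC1, FBL, RRP9, HEATR1, UTP20, BYSL, MRTO4, WDR12, PES1, NOC3L and 5 members not analysed here), for up to 6 rises and 6 falls of largest size per comparison, for members that passed against the majority, and, where none passed, for the 3 with the smallest p. Other genes named, such as UTP18 or DDX27, were chosen after their values were seen. Figures were drawn with matplotlib 3.10.9.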

Additional observations from a re-analysis of the deposited data

Results flagged for a closer look

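The effect of DAPT differed between the antagonism and the agonism experiment for 4 of the 50 members, by limma's test of the difference over all genes, where 2.85% of all genes were higher and 3.27% lower, a share near that of the members. With only the compared groups in the fit the count was 0. The antagonism change minus the agonism change was 0.46 for WDR12, 0.45 for POLR1C and 0.34 for IMP3, each of which fell with DAPT in the agonism experiment and did not pass in the antagonism experiment, and -0.34 for NOC2L, which passed in neither experiment on its own. The experiments differ at least in plating density, control antibody, length of DAPT exposure, the 2 h washout, the addition at 22 h and the array medians. These cannot be told apart.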

How the results depend on the processing

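Of 2755 values recomputed for 203 named results, 2528 kept their direction and their side of the threshold, 138 lost a call, 86 gained one and 3 reversed. The median change of the members kept its direction in every alternative for the A13, JAG1-Fc, DAPT and A4 comparisons with their controls. No scaling moved the median of all genes by over 0.1. For DAPT in the antagonism experiment the 0 calls became 2 with median centring, 6 with repeated quantile normalisation, 1 with the mean of the probe sets, and 7 with genes above the median level or with a trended, robust prior. Leaving out 1 array gave 0 to 15. For A4 the 0 calls became 1 with quantile normalisation and 3 with genes above the median level or the trended, robust prior, and 0 to 2 with 1 array left out. Without _x_at and _s_at probe sets, with 42 members in the fit, the calls were 25 for A13, 7 for IgG against DAPT, 1 for Fc beads against IgG and 2 for the DAPT effects' difference. POLR1B with DAPT against DMSO became 0.07 there, and the NOC2L difference became 0.79 there and 0.22 with the mean of the probe sets. With only the compared groups in the fit the calls were 7 for IgG against DAPT, 13 for JAG1-Fc, 0 for Fc beads against IgG and 0 for the DAPT effects' difference. IgG against DMSO gave 24 with genes above the median level, and 19 without DMSO array 2, with 10 higher and 9 lower. Leaving out 1 array gave 28 to 33 calls for A13, 11 to 17 for JAG1-Fc, 6 to 12 for IgG against DAPT, 11 to 19 for IgG against DMSO, 22 to 25 for DAPT against DMSO, 0 to 2 for Fc beads against IgG and 2 to 7 for the DAPT effects' difference. In the counts that fell with fewer arrays, the smaller number of arrays is part of the setting, and other causes were not tested. No paired analysis was possible because the labels give no replicate numbers.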

Other observations

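Genes of nucleotide and polyamine synthesis, which also supply growing cells and are often counted among MYC targets, moved in the same comparisons as the assembly factors. Of 24 measured, 13 rose and 0 fell with A13, and 15 had an unadjusted p under 0.05, where 25.8% of all genes did. ODC1, the first enzyme of polyamine synthesis, at 0.41 ± 0.06 and SRM, a spermidine synthase, at 0.38 ± 0.09 led. With JAG1-Fc beads 5 rose and 0 fell, where 2.97% of all genes rose. With DAPT against DMSO 10 fell, led by NME1 at -0.52 ± 0.06, and 1 rose, where 8.31% of all genes fell and 12.4% rose. On washout against DAPT 13 rose and 0 fell, led by SHMT2, a mitochondrial one-carbon enzyme, at 0.60 ± 0.06, where 4.15% of all genes rose. Genes of the G1/S step and DNA replication gave 1 rise and 0 falls of 23 with A13, where 5.68% of all genes rose and 9.02% fell. With IgG after DAPT washout against DMSO they gave 11 rises and 5 falls, where 17.9% and 12.6% of all genes did. The rises included MCM2 (0.49 ± 0.09) and POLD1 (0.43 ± 0.08), and the falls GINS2 (-0.65 ± 0.07) and CCNE2 (-0.63 ± 0.09).

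Within the MYC and MAX network, MXI1, a MYC antagonist, rose with A13 by 0.31 ± 0.06 and with JAG1-Fc beads by 0.22 ± 0.06, while MXD1, another, fell with A13 by 0.22 (SE 0.06) and rose with DAPT against DMSO by 0.30 ± 0.06.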
